A study of Mus musculus with 12 samples.

Results

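The cytochrome b5 system was examined through 6 genes in mouse hearts that had lost CYB5R3 in cardiomyocytes. They were chosen by name: the deleted reductase Cyb5r3, its paralogs Cyb5r1, Cyb5r2 and Cyb5r4, and the electron acceptors Cyb5a and Cyb5b. All 6 were found among the 53700 Ensembl identifiers of the deposited read counts, and all 6 passed the filter that left 17847 genes for testing. The comparison asked how abundant each gene was in control hearts, how far Cyb5r3 fell after deletion, and whether a paralog or a cytochrome b5 rose in its place.

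The ac-CYB5R3-KO group held 6 mice of the genotype CYB5R3fl/fl, Myh6-CreERT2, and the ac-WT group held 6 mice of the genotype CYB5R3wt/wt, Myh6-CreERT2. The Cre transgene, which both groups carried, is driven by a cardiomyocyte promoter, was heterozygous and needs tamoxifen to act. The strain was a mix of FVB and B6 that had been backcrossed to C57BL/6J. Male mice of both groups were 10 to 13 weeks old when tamoxifen treatment began, at 33 mg/kg/d over 5 days, and RNA came from frozen heart tissue collected 5 days after that. The promoter does not direct Cre to other cells of the heart, which keep their Cyb5r3 alleles, and the RNA was not separated by cell type. In such bulk tissue, fewer cells of a type and less RNA per cell cannot be told apart.

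Cytochrome b5 reductases are flavoproteins that take electrons from NADH and pass them to cytochrome b5, a small heme protein. Cytochrome b5 then feeds fatty acid desaturases, sterol enzymes and some cytochromes P450, and CYB5R3 also reduces the heme of globins and of soluble guanylate cyclase. Cyb5a encodes the cytochrome b5 of the endoplasmic reticulum and Cyb5b that of the outer mitochondrial membrane. CYB5R3 is made in a form that is myristoylated and bound to membranes and in a soluble form that is best known from red blood cells.

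The GENCODE annotation of the NCBIM37 (mm9) assembly places Cyb5r3 (ENSMUSG00000018042) on the minus strand of chromosome 15, from 82983924 to 83003022, with 5 transcripts. These transcripts begin translation at one of 2 places, and the first 30 coding bases are shown because they separate the forms, with the start codon in capitals.
Cyb5r3-001: ATGggggcccagctgagcacgttgagccac
Cyb5r3-202: ATGaagctgtttcagcgctccacaccggcc
The start of Cyb5r3-001 lies in its exon 1 (first coding base 83002562) and opens a coding length of 906 bases. The start of Cyb5r3-202 lies in exon 2 (first coding base 82996588), opens a coding length of 837 bases and is shared by the other 3 transcripts. The deposited value is 1 count per gene, so the counts below sum these transcripts and do not separate membrane-bound from soluble forms. The sources used here do not give which exons are floxed. Reads left in ac-CYB5R3-KO hearts therefore could not be divided between undeleted exons, myocytes in which Cre did not act, and other cells.

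Reads were 75 bases long, and no run of 75 bases was shared between transcripts of any 2 of the 6 genes, so a whole read that matches exactly can belong to only 1 of them. The longest run that Cyb5r3 shares with Cyb5r4 has 11 bases and is not shown. The longest runs that Cyb5r3 shares with Cyb5r1 and Cyb5r2 lie within coding sequence. They are shown, in capitals throughout, since they bound how well reads tell the reductases apart.
Cyb5r1 and Cyb5r3: ATCACCCCAATGCTGCAG
Cyb5r2 and Cyb5r3: GGCTTTGTGGACTT
The run of 18 bases lies at coding positions 562 to 579 of Cyb5r1-001 and 481 to 498 of Cyb5r3-002, counted from the first base of the start codon. The run of 14 bases lies at coding positions 235 to 248 of Cyb5r2-201 and 241 to 254 of Cyb5r3-002. None of the 6 genes had counts identical to those of another gene.

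The paralogs lie on other chromosomes. Cyb5r1 (ENSMUSG00000026456) is on the plus strand of chromosome 1 (136302358 to 136308317), Cyb5r2 (ENSMUSG00000048065) on the minus strand of chromosome 7 (114891969 to 114901510), and Cyb5r4 (ENSMUSG00000032872) on the plus strand of chromosome 9 (86916849 to 86972609). Cyb5a (ENSMUSG00000024646), which this annotation calls Cyb5, is on the plus strand of chromosome 18 (85020730 to 85049793), and Cyb5b (ENSMUSG00000031924) on the plus strand of chromosome 8 (109674561 to 109711370).

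Libraries held 43393183 to 53754284 counts. Library sizes were scaled by TMM, the method of edgeR that keeps a few very abundant genes from setting the scale. The hearts of ac-WT mice 2 and 3 stood apart, with TMM factors of 0.570 and 0.723 against 0.988 to 1.22 in the other 10 libraries, and with 35.3% and 34.8% of counts on mitochondrial genes against 24.0% to 30.1%. Members' values that moved by over 1.5 times without both of these mice are given with and without them. Cardiomyocyte markers were abundant in every library, at 19500 to 44755 CPM (reads of a gene relative to the TMM-normalized library size) summed over 8 genes in ac-WT and 14540 to 24397 in ac-CYB5R3-KO hearts. Mice 2 and 3 held the highest of these sums (44755 and 35771) and the lowest of fibroblast markers (1428 and 1462, against up to 7048 in the ac-WT group).

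In control hearts Cyb5r3 and Cyb5a were the most abundant members per length of transcript and Cyb5r2 was the rarest. As TMM-normalized CPM per kilobase of annotated exon (RPKM), Cyb5r3 reached 29.2 ± 8.94 (SD, n = 6), with hearts between 19.0 and 43.2. The Cyb5a level in the same hearts was 20.8 ± 2.70 RPKM (SD, n = 6). Cyb5r3 lay above Cyb5a in 5 of 6 ac-WT hearts, so these neighbours in the order were not separated in every heart. Cyb5b followed at 7.29 ± 0.789 RPKM (SD, n = 6), below Cyb5a in 6 of 6 hearts.

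The paralogs were scarcer than Cyb5r3 by a wide margin. Cyb5r1, a membrane reductase of unsettled function, stood at 4.53 ± 0.762 RPKM (SD, n = 6) in ac-WT hearts, below Cyb5b in 6 of 6. Cyb5r4, which joins a cytochrome b5 domain and a reductase domain in 1 protein, stood at 3.74 ± 0.876 RPKM (SD, n = 6), below Cyb5r1 in 5 of 6. Cyb5r2 stood at 0.597 ± 0.446 RPKM (SD, n = 6) and rested on 24 to 133 counts per library, against 2343 to 8940 for Cyb5r3, and without ac-WT mice 2 and 3 its mean was 0.360 RPKM. With the length of the longest transcript in place of all annotated exons, the means were 49.3 for Cyb5r3, 32.7 for Cyb5a, 7.89 for Cyb5r1, 7.29 for Cyb5b, 6.61 for Cyb5r4 and 0.597 for Cyb5r2. The order of Cyb5b and Cyb5r1 thus depended on the length used.

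**Figure D1:**
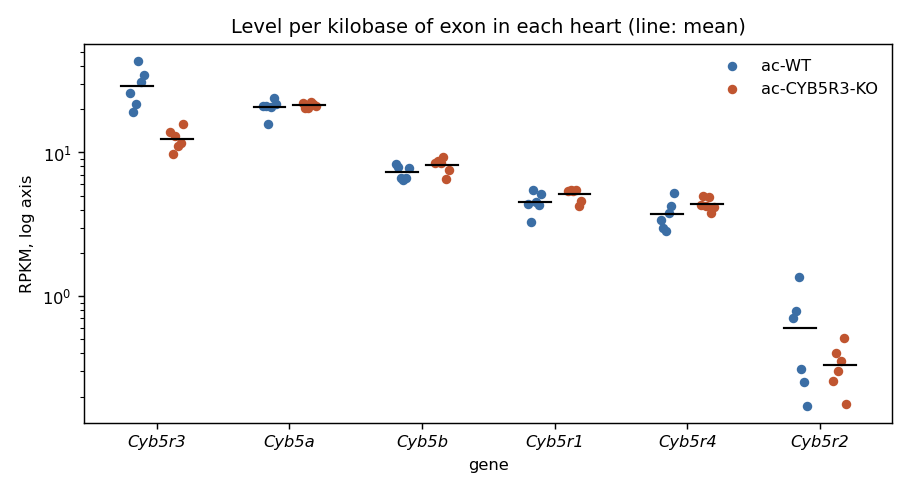
Level of each gene as TMM-normalized CPM per kilobase of annotated exon (RPKM, log axis), with 1 point per heart, ac-WT in blue and ac-CYB5R3-KO in orange, and a line at each mean. Cyb5r3 lies above Cyb5a in 5 of 6 ac-WT hearts and in 0 of 6 ac-CYB5R3-KO hearts, while the means of the 5 other genes keep their order between the groups.

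Cyb5r3 fell in ac-CYB5R3-KO hearts and was the 1 member called. Its TMM-normalized CPM in ac-WT hearts were 111, 81.9, 93.5, 185, 132 and 150 in mice 1 to 6. The ac-CYB5R3-KO hearts gave 59.6, 42.0, 55.7, 48.0, 49.7 and 67.4. The highest deleted heart, of mouse 6, lay below the lowest control heart, of mouse 2, so the groups did not overlap. Over all genes tested, 1.04% separated in this direction. By the quasi-likelihood test of edgeR, two-sided, its log2 fold change was -1.22 (SE 0.19, 95% interval -1.63 to -0.81, adjusted p = 0.0450, n = 6 mice per group). Of all genes tested, 0.101% were called at an adjusted p under 0.05 and 0.0616% were called and lower, and Cyb5r3 ranked 6 by p. The deleted hearts thus held 42.8% of the control level (95% interval 32.2% to 56.9%). Over the 924 divisions of the mice into groups of 6, an exact permutation test gave p = 0.00216, the smallest possible.

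The side of the threshold, but not the direction, depended on the processing. The call held in 5 of the 12 analyses that left out 1 mouse (adjusted p from 0.0305 to 0.136 from edgeR). It was lost in limma-voom (adjusted p = 0.0561) and with a replicate block (adjusted p = 0.100 from edgeR). Scaling by total counts gave -1.03 (adjusted p = 0.315 from edgeR), on a scale where the median of all genes moved from -0.01 to 0.26. On that scale the groups overlapped, since the ac-WT mouse 2 library held 2343 Cyb5r3 reads against 2445 to 3312 in the ac-CYB5R3-KO libraries (exact permutation test, p = 0.0433). Without ac-WT mice 2 and 3, TMM scaling gave -1.41 (adjusted p = 0.00417 from edgeR).

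The paralogs were not called in either direction. Cyb5r1 ran from 13.9 through a median of 18.8 to 23.1 CPM in controls and from 17.9 through 22.6 to 23.3 in deleted hearts. Its log2 fold change was 0.17 (SE 0.12, 95% interval -0.089 to 0.43, adjusted p = 0.520 from edgeR). The groups overlapped, and 5 of 6 deleted hearts lay above the control median. The interval leaves room for a level between 0.940 and 1.35 times that of controls. Without ac-WT mouse 2, the lowest heart, the change was 0.11, and without ac-WT mouse 3, the highest control, it was 0.24.

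Cyb5r4 ran from 19.2 through 24.4 to 35.2 CPM in controls and from 25.8 through 29.0 to 33.6 in deleted hearts. All 6 deleted hearts lay above the control median, but the highest heart of all was a control, that of mouse 6. The log2 fold change was 0.23 (SE 0.14, 95% interval -0.070 to 0.54, adjusted p = 0.458 from edgeR), an upper limit of 1.45 times the control level. Single mice moved this value in both directions. Without ac-WT mice 2 and 3, the lowest hearts for this gene, it was 0.097. Without ac-WT mouse 6, the highest, it was 0.35 (95% interval 0.090 to 0.61, adjusted p = 0.165 from edgeR), an interval above 0.

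Cyb5r2 had the widest spread of the 6 genes. Its levels in ac-WT hearts were 1.92, 2.17, 3.69, 0.85, 0.70 and 0.47 CPM in mice 1 to 6, and those in deleted hearts ran from 0.49 through 0.89 to 1.41. Mice 1 to 3 lay above every deleted heart and mice 4 and 5 lay within their range, and mouse 6 lay just below the lowest of them. The log2 fold change was -0.82 (SE 0.45, 95% interval -1.78 to 0.14, adjusted p = 0.414 from edgeR). It was -0.39 without ac-WT mouse 3 and -0.095 without ac-WT mice 2 and 3. In the other direction it was -0.98 without ac-WT mouse 5 (95% interval -1.93 to -0.021, adjusted p = 0.290 from edgeR) and -1.01 without ac-WT mouse 6 (95% interval -1.88 to -0.14, adjusted p = 0.212 from edgeR).

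The cytochromes b5 were not called either. Cyb5a ran from 34.0 through 45.1 to 51.7 CPM in controls and from 43.4 through 45.7 to 47.8 in deleted hearts. The deleted hearts lay inside the range of the controls. Its log2 fold change was 0.035 (SE 0.097, 95% interval -0.17 to 0.24, adjusted p = 0.885 from edgeR). Under TMM scaling a rise beyond 1.18 times the control level was thus outside the interval. Cyb5b ran from 27.6 through 31.0 to 35.5 CPM in controls and from 28.1 through 36.3 to 40.0 in deleted hearts, and the groups overlapped. Its log2 fold change was 0.16 (SE 0.10, 95% interval -0.064 to 0.39, adjusted p = 0.487 from edgeR), with an upper limit of 1.31 times. Without ac-CYB5R3-KO mouse 5, the lowest deleted heart for Cyb5b, the change was 0.22 (95% interval 0.00040 to 0.44, adjusted p = 0.386 from edgeR), an interval just above 0.

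**Figure D2:**
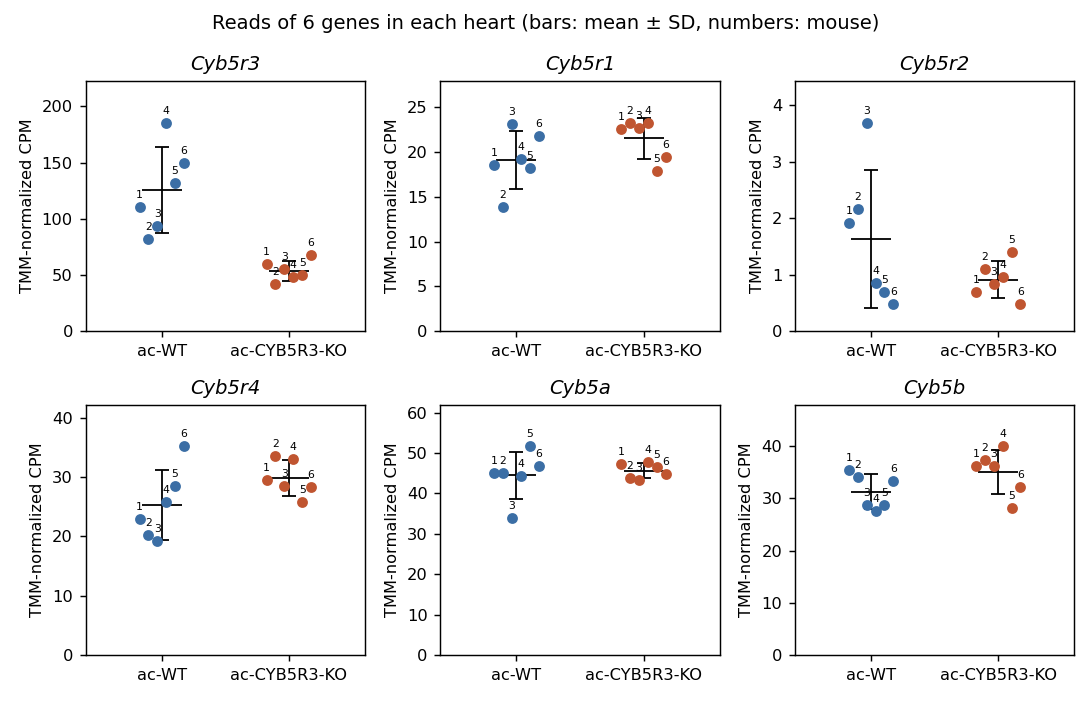
TMM-normalized CPM of each gene in each heart, on axes that start at 0, with ac-WT in blue, ac-CYB5R3-KO in orange, the mouse number at each point, and the mean and SD (n = 6) as bars. Cyb5r3 is the 1 gene whose groups do not overlap, and Cyb5r2 splits the ac-WT hearts into mice 1 to 3 above and mice 4 to 6 below 1 CPM.

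None of these 5 genes was called at an adjusted p under 0.05 in any of 21 alternative analyses. Under total counts the log2 fold changes moved up with those of all genes, to 0.42 for Cyb5r1, 0.44 for Cyb5r4, 0.27 for Cyb5a and 0.43 for Cyb5b (adjusted p of 0.410, 0.410, 0.445 and 0.410 from edgeR). On that scale the exact permutation test gave unadjusted p of 0.0281 for Cyb5r1, 0.0801 for Cyb5r4, 0.190 for Cyb5a and 0.0238 for Cyb5b. Across the alternatives the highest upper limits were 1.83 times the control level for Cyb5r1, 1.68 times for Cyb5r2 and 1.96 times for Cyb5r4. They were 1.63 times for Cyb5a and 1.75 times for Cyb5b. These data do not settle whether a paralog or a cytochrome b5 rose within those limits.

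**Figure D3:**
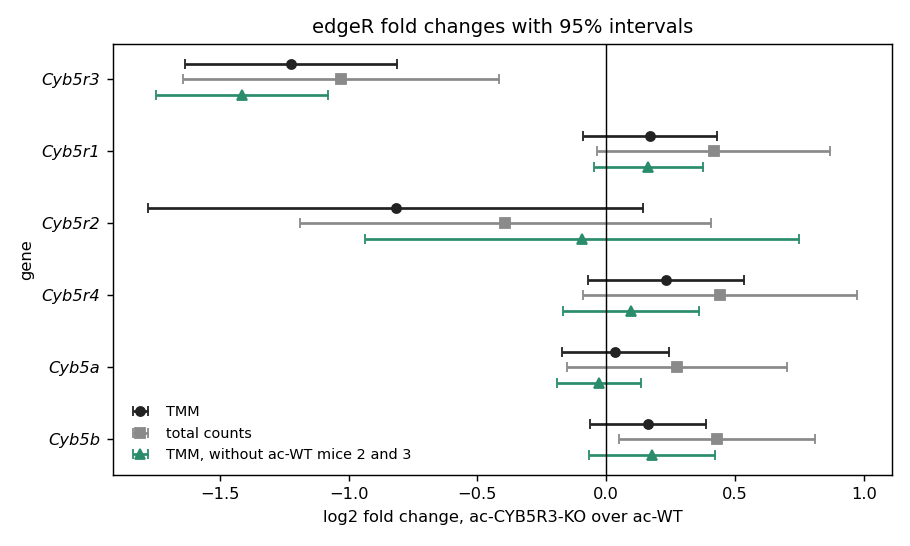
Log2 fold change of each gene, ac-CYB5R3-KO over ac-WT, from edgeR with 95% intervals under TMM scaling (black), total counts (grey) and TMM scaling without ac-WT mice 2 and 3 (green). The Cyb5r3 intervals lie below 0 in all 3, and 14 of the 15 intervals of the other genes include 0, the exception being Cyb5b under total counts (0.43).

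Ratios between members within a heart do not depend on how libraries are scaled. Cyb5r3 made up 75.9% ± 4.74 (SD, n = 6) of the summed RPKM of the 4 reductases in ac-WT hearts, with a range of 69.3% to 83.3%. It made up 55.7% ± 5.75 (SD, n = 6) in ac-CYB5R3-KO hearts, with a range of 47.4% to 63.6%. The groups did not overlap, and Cyb5r3 remained the most abundant reductase in each deleted heart. The shares of Cyb5r1 (12.3% to 22.9%) and Cyb5r4 (9.97% to 19.8%) were higher as means of the deleted hearts, as a lower Cyb5r3 makes them, while that of Cyb5r2 overlapped between the groups. The mean share of Cyb5r2 was 1.83% in ac-WT and 1.54% in ac-CYB5R3-KO hearts, but its medians ran the other way (1.35% and 1.46%), and the ac-WT mean was 1.34% without mouse 3 and 0.920% without mice 2 and 3.

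In absolute terms the summed level of the paralogs differed little between the groups with TMM scaling. The 4 reductases summed to 38.1 ± 9.45 RPKM (SD, n = 6) in ac-WT and 22.3 ± 1.78 RPKM (SD, n = 6) in ac-CYB5R3-KO hearts, and the groups did not overlap. Unlike the ratios, sums depend on scaling. Under total counts they were 36.7 ± 15.7 and 24.8 ± 2.46 RPKM (SD, n = 6), and the groups overlapped. On that scale ac-WT mouse 2 fell to 14.9 RPKM, below every deleted heart, and ac-WT mouse 3 fell within their range. With TMM scaling the 3 paralogs alone summed to 8.86 ± 1.16 RPKM (SD, n = 6) and 9.83 ± 0.928 RPKM (SD, n = 6), and the groups overlapped. With TMM scaling the difference in means was thus -16.7 RPKM for Cyb5r3 and 0.967 RPKM for its paralogs together.

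**Figure D4:**
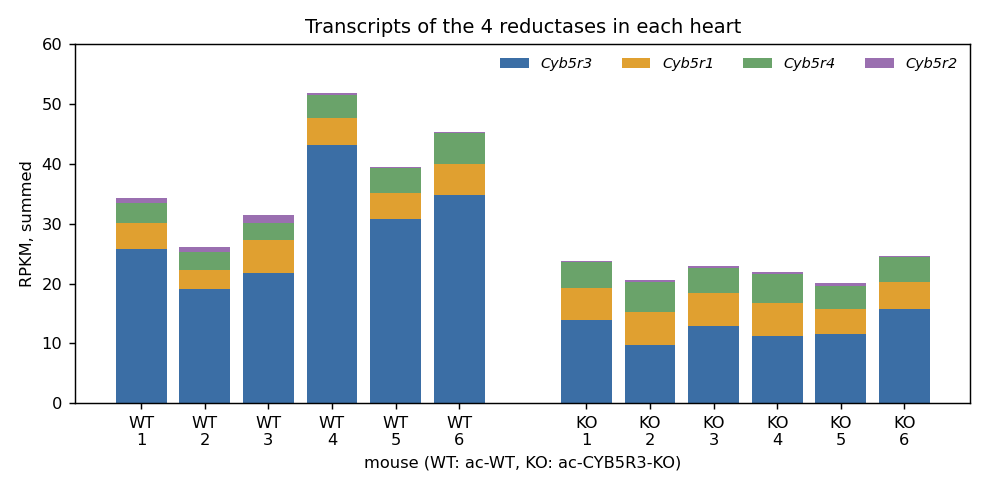
Summed RPKM of the 4 reductases in each heart, with Cyb5r3 in blue, Cyb5r1 in yellow, Cyb5r4 in green and Cyb5r2 in purple. The ac-WT bars reach 26.1 to 51.8 RPKM and the ac-CYB5R3-KO bars 20.1 to 24.7 RPKM, and the segment that is shorter in each ac-CYB5R3-KO bar is the blue one.

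Per kilobase of annotated exon, reductase transcripts exceeded those of the cytochromes b5 in most control hearts and in no deleted heart. The side of 1 on which a heart fell depends on the length used, and the values below hold for annotated exons only. The ratio of the 4 reductases to Cyb5a and Cyb5b had a mean of 1.36 in ac-WT hearts (0.899 to 1.91) and 0.759 in ac-CYB5R3-KO hearts (0.693 to 0.866). By this length the heart of ac-WT mouse 2 was the 1 control below 1, and the groups did not overlap. Counts of Cyb5r3 per count of Cyb5a had a mean of 2.82 in ac-WT hearts (1.81 to 4.18) and 1.18 in ac-CYB5R3-KO hearts (0.959 to 1.50). The same ratio to Cyb5b was 4.10 (2.40 to 6.73) and 1.56 (1.13 to 2.09). These ranges did not overlap either, also for the control heart whose Cyb5r3 count was lowest.

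Cyb5r3 differed widely between control hearts, and these differences ran with those of several cell type markers. Its coefficient of variation was 30.6% in ac-WT and 16.9% in ac-CYB5R3-KO hearts, against 13.0% and 4.01% for Cyb5a. Of all genes tested, the 5 most like Cyb5r3 in their deviations from the group means of log2(CPM + 1) over the 12 hearts were Igsf6 (Pearson r = 0.979), Prrx2 (0.968), Arhgap30 (0.962), Rab3il1 (0.962) and Cyth4 (0.959). They were chosen for this likeness, which is therefore given without a test. They kept r between 0.926 and 0.980 without ac-WT mice 4 and 2, the hearts farthest from the median of Cyb5r3. None of the 5 differed between the genotypes at an unadjusted p under 0.05 (edgeR, p from 0.259 to 0.986), unlike Cyb5r3 itself.

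The same deviations were then related to 5 lists of cell type markers (cardiomyocyte, endothelial, fibroblast, macrophage and erythroid), which made 30 relations with the 6 genes. The other marker lists given below were not related, and the adjusted p of these relations covers the 30 only. The macrophage list holds 6 genes (Adgre1, Cd68, Csf1r, C1qa, C1qb and Mrc1), of which 0 changed at an unadjusted p under 0.05. Its summed level was 294, 197, 197, 615, 591 and 671 CPM in ac-WT mice 1 to 6, and 422, 358, 366, 400, 387 and 566 CPM in ac-CYB5R3-KO mice 1 to 6. The deviations of Cyb5r3 rose with this sum (Pearson r = 0.886, permutation p = 8.4e-04, Benjamini-Hochberg adjusted p = 0.0126, and Spearman rho = 0.888, permutation p = 9.9e-04, adjusted p = 0.0297, n = 12). Without the 2 hearts farthest from the median r was 0.842, and without ac-WT mice 2 and 3 it was 0.755. In the ac-WT hearts alone r was 0.925 with the macrophage list, but also 0.859 with the fibroblast, -0.810 with the erythroid and -0.785 with the cardiomyocyte list, so control hearts do not single out 1 cell type. In the ac-CYB5R3-KO hearts the corresponding r was -0.739 with the fibroblast, 0.776 with the erythroid and -0.190 with the cardiomyocyte list. The macrophage sums of the ac-WT hearts fall into 3 low and 3 high ones, and within the 6 ac-CYB5R3-KO hearts alone r was 0.802 (two-sided exact permutation test, p = 0.0472, not adjusted).

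Cyb5r2 ran the opposite way. Its deviations fell as the macrophage sum rose (Pearson r = -0.929, permutation p = 4.7e-04, Benjamini-Hochberg adjusted p = 0.0126, and Spearman rho = -0.930, permutation p = 0.00493, adjusted p = 0.0739, n = 12). Without the 2 farthest hearts r was -0.941, without ac-WT mice 2 and 3 it was -0.901, and in the ac-CYB5R3-KO hearts alone it was -0.750 (exact permutation test, p = 0.0889, not adjusted). In the other 28 relations the adjusted p for r was 0.154 or higher. In ac-WT hearts 2 and 3 low macrophage and fibroblast sums, a high mitochondrial share and a low TMM factor came together, and their part in these relations was not tested.

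**Figure D5:**
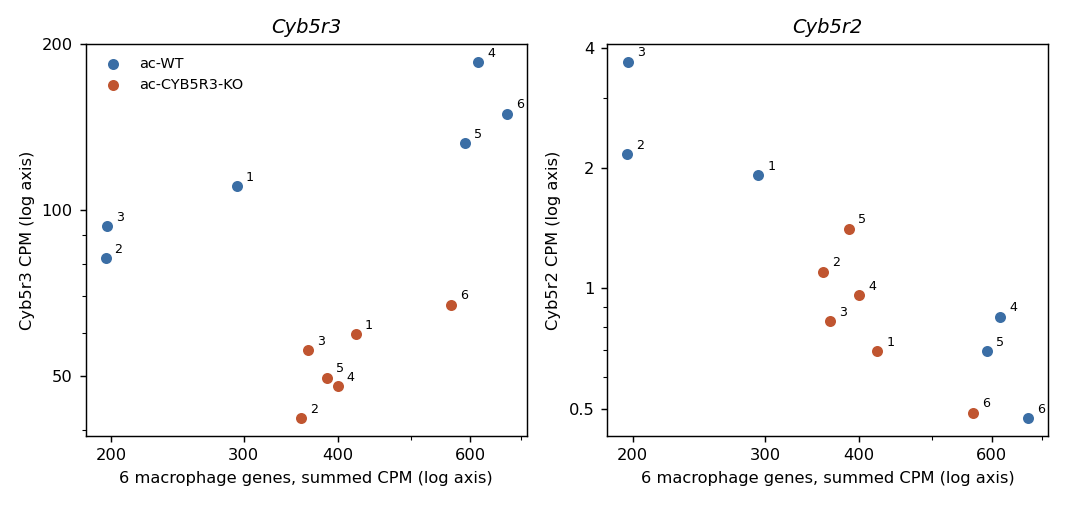
CPM of Cyb5r3 (left) and Cyb5r2 (right) against the summed CPM of 6 macrophage genes, both on log axes, with 1 numbered point per heart, ac-WT in blue and ac-CYB5R3-KO in orange. Cyb5r3 rises with the sum in each group, and the ac-CYB5R3-KO hearts lie below every ac-WT heart although their sums (358 to 566 CPM) fall inside the ac-WT range, while Cyb5r2 falls.

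The other lists give the cellular setting of these values. At an unadjusted p under 0.05, where 14.6% of all genes passed (9.73% lower and 4.91% higher), 3 of 8 cardiomyocyte markers were lower in ac-CYB5R3-KO hearts, and 0 of 7 endothelial and 0 of 7 fibroblast markers differed. Of 6 smooth muscle and pericyte markers, 2 were lower and 1 was higher. Of 5 erythroid markers, 3 were higher, with sums of 222 to 4487 CPM in ac-WT and 1323 to 12228 CPM in ac-CYB5R3-KO hearts. CYB5R3 is itself a red cell enzyme, and the part of red cell RNA in its counts was not tested. From the list of cartilage and airway markers 3 genes were tested, the cartilage genes Col2a1, Acan and Comp, and all 3 were higher, while no airway marker passed the filter. The sums of this list did not overlap, at 3.47 to 35.1 CPM in ac-WT and 37.5 to 96.6 CPM in ac-CYB5R3-KO hearts, with a median log2 fold change of 2.17 over the 3 genes. The part of such tissue in the members' values was not tested. In addition, 1 of 4 lymphocyte markers was higher, 1 of 3 atrial markers was lower, and all 4 adipocyte markers stayed below the filter. No listed marker had an adjusted p under 0.05.

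Genes on either side of Cyb5r3 were not called. Of the 3 tested genes next to it on each side, the nearest, Poldip3 (4.11 kb away), differed by -0.078 on the log2 scale (SE 0.087, adjusted p = 0.690 from edgeR). The others lay between -0.037 for A4galt and 0.24 for Arfgap3, with Rrp7a at 0.067, Serhl at 0.14 and 1700001L05Rik at 0.0094. The groups overlapped for all 6, and 0 had an unadjusted p under 0.05 in edgeR.

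Around the 6 genes, 40 others of the pathway were listed, of which 35 were tested. At an unadjusted p under 0.05, 2 were lower and 2 were higher, or 11.4% against 14.6% of all genes (9.73% lower and 4.91% higher), and 0 had an adjusted p under 0.05 (edgeR). Their median log2 fold change was 0.11, against -0.01 for all genes. Both counts moved with single mice, since the lower count was 1 without ac-WT mouse 2, 3 or 4 or ac-CYB5R3-KO mouse 1, 2, 3, 4 or 5. The higher count was 0 without ac-WT mouse 3, 1 without ac-CYB5R3-KO mouse 3 or 6, 4 without ac-CYB5R3-KO mouse 5 and 6 without ac-WT mouse 6.

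Among relatives with a reductase or cytochrome b5 domain, 10 of 11 were tested, 1 was lower and 0 were higher (median 0.13). The lower one was Nenf, a secreted protein with a cytochrome b5 fold, at 52.1 through 62.7 to 125 CPM in ac-WT and 51.9 through 54.4 to 56.8 CPM in deleted hearts. The log2 fold change was -0.40 (adjusted p = 0.334 from edgeR, exact permutation p = 0.0498), and the groups overlapped. It was -0.16 without ac-WT mouse 2 and -0.082 without ac-WT mice 2 and 3. Pgrmc2, a heme-binding membrane protein, stood at 0.20 (adjusted p = 0.350 from edgeR, exact permutation p = 0.0368). The desaturase Fads3 stood at 0.22 (adjusted p = 0.615 from edgeR, exact permutation p = 0.303).

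Of 13 listed enzymes that take electrons from cytochrome b5, 9 were tested, 1 was lower and 0 were higher (median 0.11). Scd4, a stearoyl-CoA desaturase known from heart, ran from 0.699 through 1.61 to 3.41 CPM in ac-WT and from 0.314 through 0.548 to 0.916 CPM in deleted hearts. The log2 fold change was -1.60 (adjusted p = 0.173 from edgeR, exact permutation p = 0.0108), the groups overlapped, and the value is uncertain where reads are shared with the neighbouring Scd genes. The sphingolipid desaturase Degs1 stood at 0.11 (adjusted p = 0.685 from edgeR, exact permutation p = 0.338). The sterol enzyme Msmo1 stood at 0.38 (adjusted p = 0.425 from edgeR, exact permutation p = 0.193). Mtarc2, a molybdenum reductase served by Cyb5b, stood at -0.12 (adjusted p = 0.494 from edgeR, exact permutation p = 0.0108). Without ac-WT mice 2 and 3 the changes were 0.014 for Degs1, 0.30 for Msmo1 and -0.067 for Mtarc2.

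Of 6 heme proteins, 0 were lower and 2 were higher (median 0.17), the alpha globin genes Hba-a1 and Hba-a2. Both had a log2 fold change of 1.61 (adjusted p = 0.290 for each from edgeR, exact permutation p = 0.0433 for each), and as near-identical copies they are not independent values. Without ac-WT mice 2 and 3 the changes were 2.39 and 2.38 (adjusted p = 0.390 for each from edgeR). Of 6 other flavoprotein reductases, 0 passed in either direction (median -0.14). Por, the reductase of cytochromes P450, stood at -0.23 (adjusted p = 0.354 from edgeR, exact permutation p = 0.0433). The quinone reductase Nqo1 stood at 0.37 (adjusted p = 0.393 from edgeR, exact permutation p = 0.0887). Without ac-WT mice 2 and 3 these were -0.13 for Por and 0.17 for Nqo1. Of 4 regulators and myristoyltransferases, 0 passed either (median 0.15). Nmt1 and Nmt2, which attach myristate to proteins, stood at 0.13 and 0.32 (adjusted p of 0.524 and 0.358 from edgeR). The redox regulator Nfe2l2 stood at -0.082 (adjusted p = 0.718 from edgeR), and at -0.16 without ac-WT mice 2 and 3.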

How the data were processed

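RNA of 12 hearts was sequenced by the authors from stranded total RNA libraries as unpaired reads of 75 bases. The authors deposited whole-number read counts per Ensembl gene, not normalized. The submitters' processing notes name STAR, featureCounts and GRCm39, whereas the methods name mm9 for mapping. The strand setting and annotation of the counts are not given in the sources used here, so coordinates and exon lengths were taken from GENCODE on NCBIM37 and RPKM levels depend on that choice. Symbols were matched for 31027 of 53700 identifiers (57.8%), and 0 columns were left unused.

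Counts were filtered (filterByExpr, minimum count 10), scaled by TMM and tested with edgeR 4.0.16 (R 4.3.3; quasi-likelihood, two-sided, no covariate, Benjamini-Hochberg over 17847 genes). The biological coefficient of variation was 26.5%, so spread between mice rather than depth limits precision, and the reads, which carry no molecular identifiers, are not counts of single molecules. Fits were tested on simulated data. Alternatives were total counts, DESeq2 size factors, DESeq2 1.42.0, limma-voom (limma 3.58.1), no filter, 10 counts in every library, a replicate block and leaving out each mouse. Leaving out ac-WT mice 2 and 3 together, the sums under total counts, robust estimates, and the relations to marker lists (100000 permutations within groups) were added after seeing the data.

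Members and lists were chosen with earlier results of these data known. Named genes were the 6 members, the 2 highest and 2 smallest p of each related list, the 3 tested neighbours on each side of Cyb5r3, and the 5 genes most like it. Of the related genes, 39 of 40 were matched, and 5 of 7 erythroid markers were matched. A replicate number is given to a different animal in each group.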

Additional observations from a re-analysis of the deposited data

Results flagged for a closer look

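Of 60 groups of 6 hearts examined, 5 held a heart whose gap to the nearest other was more than 0.625 of the whole range of its group, where chance flags about 1 in 20 groups. None of these was a group of the 6 cytochrome b5 reductase and cytochrome b5 genes. Nenf reached 125 CPM in ac-WT mouse 2. Msmo1 reached 10.8 CPM in ac-WT mouse 6. Mtarc2 reached 38.3 CPM in ac-WT mouse 2. Mtarc2 was lowest, at 27.0 CPM, in ac-CYB5R3-KO mouse 3. Por reached 29.2 CPM in ac-WT mouse 2.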

How the results depend on the processing

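The fall of Cyb5r3 kept its direction in all 21 alternatives, but it passed an adjusted p of 0.05 in only 5 of the 12 analyses that left out 1 mouse (log2 fold change from -1.31 to -1.08, adjusted p from 0.0305 to 0.136) and in 6 of the other 9. It was lost without ac-WT mouse 3 or 5 or ac-CYB5R3-KO mouse 1, 2, 3, 4 or 5, and under total counts (-1.03), limma-voom (-1.17, adjusted p = 0.0561) and the replicate block (-1.18, adjusted p = 0.1000). DESeq2 gave an adjusted p of 1.4e-06. Cyb5a changed sign without ac-WT mouse 3 (-0.022; range over single mice -0.022 to 0.082) and without ac-WT mice 2 and 3 (-0.028), far from any threshold. Genes called, 18 as reported, were 8 under total counts and DESeq2 size factors, 437 in DESeq2, 2 in limma-voom, 35 with no filter, 2 under the replicate block, 7 without ac-WT mice 2 and 3 and 2 to 38 when 1 mouse was left out. Related genes that were lower, 2 as reported, were 1 under total counts, limma-voom and without ac-WT mice 2 and 3, and 1 to 3 without single mice. Those that were higher, also 2, were 5 under total counts, 6 under the replicate block and 0 to 6 without single mice. Levels in ac-WT hearts by the longest transcript moved to 49.3 for Cyb5r3, 32.7 for Cyb5a, 7.89 for Cyb5r1 and 6.61 for Cyb5r4. The cause was not tested.

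The replicate numbers were not used as pairs in the main fit, and whether mice of the same number share a factor was not tested. Deviations from the group means correlated at 0.133 on average between mice of the same number (-0.160 to 0.360 over 6 pairs) and at -0.0255 otherwise, and 6 of 12 samples correlated best with their own number. Lengths and symbols come from an older annotation than the counts may use, Cyb5r2 rests on few reads, and gene counts do not separate Cyb5r3 forms or exons.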
